A study of Rattus norvegicus with 6 samples.

Results

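Immediate early genes are the first genes a cell switches on when a growth factor, hormone, cytokine or stress reaches it. Their transcription starts from proteins already present, mainly serum response factor with its Elk partners and the cAMP-responsive factor CREB, and their mRNAs are short-lived. Fos and Jun proteins pair to form AP-1, a leucine zipper transcription factor. Another member of the set, Dusp1, encodes a phosphatase that switches off kinases of the response. 10 genes grouped under this name are described here: Fos, Jun, Junb, Jund (known for steady expression), Egr1, Ier2, Ier3, Atf3, Dusp1 and Gadd45b. They were chosen by name and found through the RefSeq accessions of the table, and all 10 had a row, out of 12340 named genes measured.

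The RNA came from colonic epithelium (its inner layer) of 6 Wistar rats, adult males, with 1 sample per animal. The pineal gland had been removed from every animal, vehicle animals included, so all of them lacked its nightly output. Melatonin (1 mg/kg, intraperitoneal) was given to 3 rats, numbered 4 to 6, and the solvent (2.5% ethanol in phosphate-buffered saline) to 3 rats, numbered 1 to 3. Injection was at the onset of subjective night and tissue was collected 4 h later. The comparison asks how the colonic epithelium responds to the hormone, whose receptors are known to couple to inhibitory G proteins and lower cAMP. Levels are FPKM, fragments scaled by transcript length and by library total. They are compared here between genes and between animals, though this scaling need not remove every difference between libraries.

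The tissue label was checked against 13 markers of colonic epithelium. All 11 with a row passed the filter on low values, a mean of at least 1 FPKM, and together they summed to 12868 to 13299 FPKM after vehicle and 12335 to 13745 after melatonin. Of 12 markers of smooth muscle, fibroblasts and endothelium, 11 had a row, and they summed to 12.8 to 20.3 FPKM in any animal. T and NK cell markers, 9 of 10 with a row, summed to 6.42 to 14.3 FPKM after vehicle and 13.5 to 27.2 after melatonin. Macrophage, neutrophil and mast cell markers, 9 of 9 with a row, summed to 114 to 181 and 127 to 156 FPKM. Most of that sum was Cd14 alone, at 91.88 to 150.15 FPKM after vehicle and 95.01 to 134.01 after melatonin. Lyz2, the next of these markers by level, had means of 3.95 and 8.88 FPKM. B and plasma cell markers, 3 of 6 with a row, reached at most 1.66 FPKM in sum after vehicle and 8.38 after melatonin, with melatonin animal 6 at 0. Red blood cell genes, 5 of 6 with a row, summed to 128 to 171 and 77.4 to 133 FPKM. Of the measured markers in these lists, 0 were at 0 in all 6 animals. Steps between the lowest values put the depth at 3290000 to 3675000 mapped fragments per library, an estimate made here. Melatonin animal 6 stood apart from the rest: it held the lowest of the 6 values for 33.3% of all genes tested, against 10.6% to 14.5% in the other animals. The part of these differences between libraries in the results below was not tested.

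Promoters are shown first, because the cAMP response element, written TGACGTCA, is the DNA site through which CREB is known to act. RefSeq promoter sequences (build GRCr8) were at hand for 6 of the 10 genes: Dusp1, Jund, Junb, Ier2, Egr1 and Gadd45b. In the 250 bases before the annotated start, both strands searched, the full element stood in 3 of these 6 promoters and in 1.59% of all 33469 promoters. The shorter TGACG, which every full element also contains, stood in 5 of 6 and in 18.2% of all promoters. The AP-1 site TGANTCA and the EGR site GCGGGGGCG stood in 0 of 6, against 6.34% and 2.45% of all promoters. The CArG box, the serum response factor site, stood in 1 of 6, the promoter of Egr1, which holds it at 2 positions, and in 1.5% of all. TATAAA stood in 1 of 6, Junb, and in 12.9% of all. The Gadd45b window held none of these letters. Below are the 230 bases before the start of the 3 genes with a full element and of Junb, whose TGACG lacks the other side of it, with the letters of these motifs on either strand in capitals. The Dusp1 stretch is chr10:17184623-17184852 on the plus strand, the Jund stretch chr16:18769772-18770001 on the minus strand, the Ier2 stretch chr19:40399143-40399372 on the plus strand and the Junb stretch chr19:40080896-40081125 on the plus strand.
Dusp1: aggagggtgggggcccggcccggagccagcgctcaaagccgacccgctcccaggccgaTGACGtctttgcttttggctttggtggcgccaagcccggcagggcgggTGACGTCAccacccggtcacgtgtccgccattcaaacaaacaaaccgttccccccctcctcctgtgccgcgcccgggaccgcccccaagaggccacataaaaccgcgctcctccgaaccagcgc
Jund: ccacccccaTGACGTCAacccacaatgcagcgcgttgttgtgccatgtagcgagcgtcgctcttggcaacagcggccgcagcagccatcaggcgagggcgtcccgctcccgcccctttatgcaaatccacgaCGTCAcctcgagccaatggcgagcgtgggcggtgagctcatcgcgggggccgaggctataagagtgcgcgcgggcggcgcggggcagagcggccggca
Ier2: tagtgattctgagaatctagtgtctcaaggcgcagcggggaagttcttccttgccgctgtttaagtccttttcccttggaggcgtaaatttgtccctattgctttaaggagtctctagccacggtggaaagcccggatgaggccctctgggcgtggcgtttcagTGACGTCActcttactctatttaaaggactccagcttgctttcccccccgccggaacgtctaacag
Junb: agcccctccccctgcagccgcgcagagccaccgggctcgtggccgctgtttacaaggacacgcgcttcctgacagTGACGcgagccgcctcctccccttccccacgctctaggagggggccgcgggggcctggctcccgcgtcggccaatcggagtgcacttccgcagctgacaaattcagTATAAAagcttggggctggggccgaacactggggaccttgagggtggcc

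The full element lay 124 to 117 bases before the start in Dusp1, 221 to 214 in Jund and 66 to 59 in Ier2. These matches describe letters only and show no binding.

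After melatonin, 0 of the 10 genes passed the test (limma, Benjamini-Hochberg adjusted p under 0.05), and 0 of 10 had an unadjusted p under 0.05. Tissue was taken only at 4 h, so a change that came and went earlier would not be seen here. Over all 10137 genes tested, limma called 0%, with 0 higher and 0 lower, and 3.75% (380 genes) had an unadjusted p under 0.05. Throughout, transcripts without a matched symbol count as genes tested where they passed the filter. The 10 genes had limma adjusted p-values of 0.972 to 0.988. Their fitted values lay above 0 for 9 genes and below 0 for 1, Gadd45b, with 46.0% of all genes tested above 0. This count was 5 above and 5 below with sample quality weights, and 6 above and 4 below without vehicle animal 2. The median change of the 10 was 0.084 on the log2(FPKM + 1) scale, against -0.018 over all genes tested. Gadd45b was the 1 gene of 10 whose melatonin values all lay on one side of its vehicle values, where 8.38% of all genes tested did so in either direction, 4.04% upwards and 4.33% downwards. A two-sided exact permutation test of 1 gene has a floor of p = 0.1 in this design. In RNA from a whole layer, fewer cells that use a gene and less of its RNA per cell cannot be told apart.

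**Figure D1:**
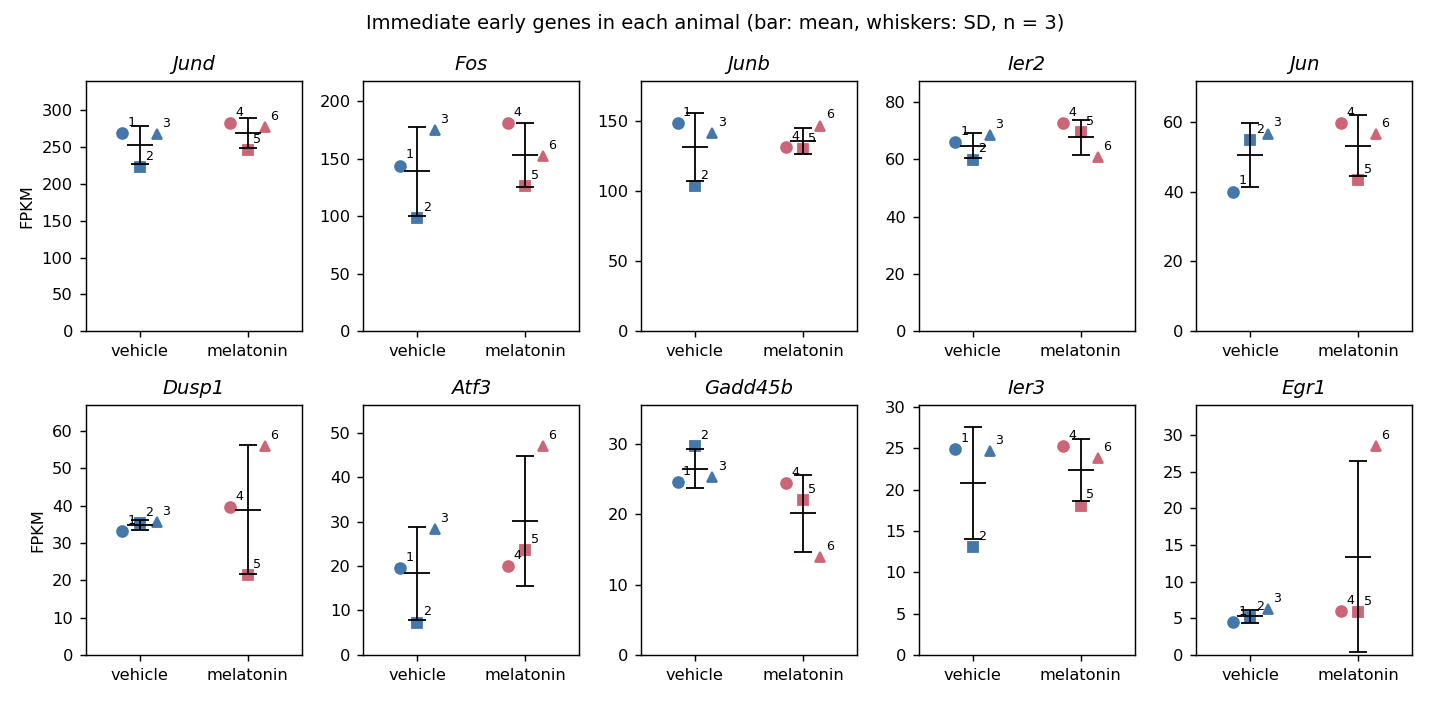
FPKM of the 10 immediate early genes in each rat, vehicle in blue and melatonin in red, ordered by mean level. Points are animals with their numbers, the bar is the mean and whiskers the SD of 3 animals, and each vertical axis starts at 0. Egr1, Atf3 and Dusp1 are highest in melatonin animal 6, and Gadd45b is lowest there.

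Among the AP-1 genes, Jund had the highest level when its 2 rows were summed. JunD is the Jun protein known for steady expression in resting cells. Its FPKM was 268.70, 222.52 and 267.06 in vehicle animals 1, 2 and 3 and 282.84, 245.72 and 277.32 in melatonin animals 4, 5 and 6. The groups overlapped, with vehicle animal 2 lowest and melatonin animal 4 highest. The means were 253 ± 26.2 and 269 ± 20.03 FPKM (SD, n = 3), a change of 0.090 ± 0.108 (log2, SE; limma adjusted p = 0.974). The 95% interval ran from 0.896-fold to 1.26-fold. This and all fold intervals below are folds of FPKM + 1, not of FPKM. The change was 0.0013 without vehicle animal 2 and 0.0069 with sample quality weights.

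Jund has 2 transcripts in the table, with the same length and the same values in every animal, and the level given is their sum. In the 18 genes that have such identical rows, 26 values were low enough to be read as fragments, of which 16 lay within 0.1 of a whole number plus 0.5 and 8 within 0.1 of a whole number. Reads shared equally between the rows would give such values. If each row instead held all reads, the Jund level would be that of 1 row, 126 FPKM after vehicle and 134 after melatonin by the authors' deposited table, and the change between groups would stay nearly as it is, at 0.090.

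Fos, whose protein pairs with Jun proteins, came next by level. Its FPKM was 144.13, 98.13 and 175.16 after vehicle and 181.49, 126.15 and 152.16 after melatonin. The groups overlapped across most of their range, with vehicle animal 2 lowest. The means were 139 ± 38.8 and 153 ± 27.7 FPKM (SD, n = 3), a change of 0.16 ± 0.22 (log2, SE; limma adjusted p = 0.974). The 95% interval ran from 0.794-fold to 1.58-fold. Without vehicle animal 2 the sign turned, with a change of -0.067 (limma adjusted p = 0.999).

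Junb, which encodes a Jun protein often opposed to c-Jun in the control of proliferation, lay at nearly the level of Fos. Its values were 148.48, 103.42 and 141.24 FPKM after vehicle and 130.87, 129.79 and 146.37 after melatonin. The 3 melatonin values lay inside the range of the vehicle values. The change was 0.065 ± 0.144 (log2, SE; limma adjusted p = 0.979), with a 95% interval from 0.832-fold to 1.31-fold, and it was -0.096 without vehicle animal 2. Jun, which encodes c-Jun, the target of the JNK kinases, was listed at 40.04, 54.79 and 56.66 FPKM after vehicle and 59.79, 43.31 and 56.51 after melatonin. Here vehicle animal 1, not animal 2, was lowest. The change was 0.077 ± 0.172 (log2, SE; limma adjusted p = 0.979), with a 95% interval from 0.802-fold to 1.39-fold, and its sign turned without vehicle animal 1, to -0.079.

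With both Jund rows summed, Jund held 57.4% to 59.7% of the Jun family's summed FPKM, Junb 27.2% to 32.5% and Jun 8.76% to 14.4%, the ends of the Jun range being vehicle animals 1 and 2. With 1 of the 2 rows, Jund held 40.3% to 42.6% and Junb 38.4% to 46.0%, and Junb was the largest part in 4 of the 6 animals, so which gene leads the family depends on the summing. In the Fos family, Fos held 38.0% to 52.7% and Fosl2, which encodes Fra-2, 45.7% to 60.8%, so these 2 genes made up nearly all of it. The Fos share was 46.7% ± 7.75 after vehicle and 50.1% ± 2.84 after melatonin (SD, n = 3; two-sided exact permutation p = 0.7). Fosb held 0.897%, 1.06% and 1.56% in vehicle animals and 0.695%, 1.96% and 5.16% in melatonin animals 4, 5 and 6. Melatonin animal 6 thus had the largest Fosb share, but the groups overlapped (two-sided exact permutation p = 0.4). Fosb was picked out after its values were seen.

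**Figure D2:**
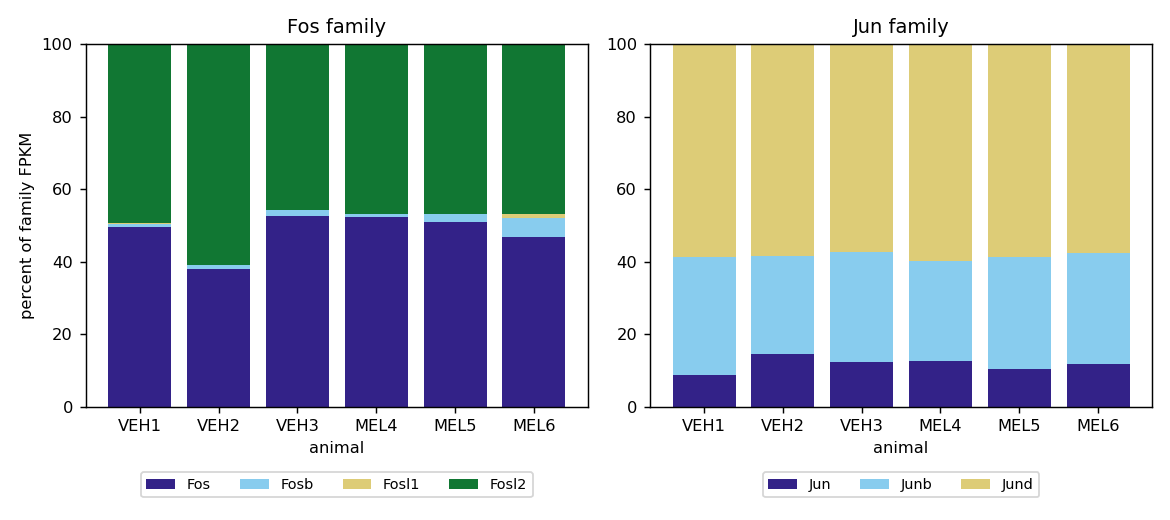
Share of each gene in the summed FPKM of its family, in percent, in each of the 6 animals. Fos and Fosl2 divide the Fos family nearly evenly except in vehicle animal 2, where Fosl2 holds 60.8%, and Jund, with its 2 identical rows summed, is the largest part of the Jun family in every animal. With 1 row, Junb would be the largest part in 4 of the 6.

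Egr1 encodes a zinc finger transcription factor that is induced through serum response factor and the ERK pathway. It was the member with the lowest mean level and the largest fitted change. The FPKM was 4.50, 5.11 and 6.25 after vehicle and 5.96, 5.79 and 28.44 after melatonin. Melatonin animal 6 stood at 5.38 times the vehicle mean, while animals 4 and 5 lay between vehicle animals 2 and 3. The means were 5.29 ± 0.888 and 13.4 ± 13.0 FPKM (SD, n = 3), a change of 0.84 ± 0.52 (log2, SE; limma adjusted p = 0.972). The 95% interval ran from 0.784-fold to 4.07-fold of FPKM + 1. The fitted fold on that scale was 1.79, and the ratio of the mean FPKM was 2.53. Without melatonin animal 6 the change was 0.14 ± 0.21 (limma adjusted p = 1.00). These values rest on an estimated 24 to 155 reads per library. The score headed as a probability in the authors' deposited table was 0.728 for Egr1, with 109 transcripts scored higher, and the tool behind it is not given in the sources used here.

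Atf3 encodes a leucine zipper factor of the ATF/CREB family that is induced by many kinds of stress and often represses its targets. The animals stood at 19.50, 7.25 and 28.22 FPKM after vehicle and 19.98, 23.53 and 46.89 after melatonin. The vehicle animals themselves spanned most of the range, with animal 2 lowest, and melatonin animal 6 was highest at 2.56 times the vehicle mean. The means were 18.3 ± 10.5 and 30.1 ± 14.6 FPKM (SD, n = 3), a change of 0.77 ± 0.47 (log2, SE; limma adjusted p = 0.972). The 95% interval ran from 0.808-fold to 3.61-fold. Without vehicle animal 2 the change was 0.25, and without melatonin animal 6 it was 0.41. The authors' deposited table scored Atf3 at 0.686, with 165 transcripts scored higher.

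Ier2, which encodes a small nuclear protein of the immediate early set, had the smallest within-group SD of the 10 on the log2(FPKM + 1) scale. The 6 values were 66.02, 59.84 and 68.40 FPKM after vehicle and 72.74, 69.39 and 60.80 after melatonin. The groups overlapped and the highest value was 1.22 times the lowest. The change was 0.060 ± 0.108 (log2, SE; limma adjusted p = 0.976), with a 95% interval from 0.877-fold to 1.24-fold, and it was 0.0054 without vehicle animal 2 and 0.0066 without melatonin animal 4.

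**Figure D3:**
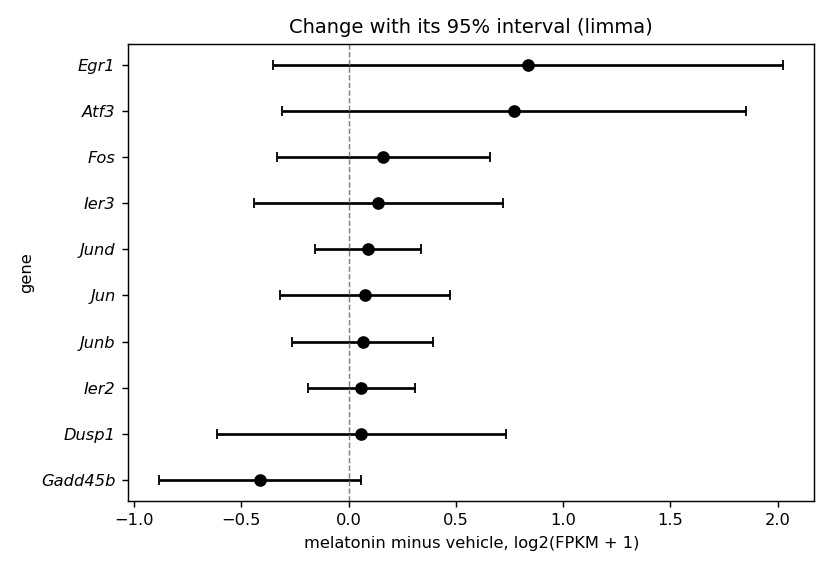
Change after melatonin of the 10 genes on the log2(FPKM + 1) scale, as limma estimates (points) with 95% intervals (whiskers) from 3 animals per group. Every interval includes 0, and those of Egr1 and Atf3 are the widest.

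The remaining 3 genes act on kinase signalling and survival. Dusp1 encodes a nuclear phosphatase that switches off the p38, JNK and ERK kinases. Its levels were 33.17, 35.38 and 35.61 FPKM after vehicle and 39.57, 21.34 and 55.83 after melatonin. The vehicle animals lay close together, while melatonin animal 5 was below and animals 4 and 6 were above all of them. The coefficient of variation was 3.88% after vehicle and 44.3% after melatonin, a difference that was not tested. The means were 34.7 ± 1.35 and 38.9 ± 17.3 FPKM (SD, n = 3), a change of 0.060 ± 0.292 (log2, SE; limma adjusted p = 0.988). The change was 0.43 without melatonin animal 5 and -0.25 without melatonin animal 6.

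Gadd45b encodes a stress protein that binds kinases upstream of p38 and JNK. The level was 24.54, 29.66 and 25.25 FPKM after vehicle and 24.47, 22.02 and 13.91 after melatonin. Each melatonin animal lay below each vehicle animal, but animal 4 (24.47) lay close to vehicle animal 1 (24.54), and animal 6 was lowest at 0.525 times the vehicle mean. The change was -0.41 ± 0.20 (log2, SE; limma adjusted p = 0.972), with a 95% interval from 0.543-fold to 1.04-fold. Without melatonin animal 6 the change was -0.18 ± 0.14. These values rest on an estimated 64 to 123 reads per library. Within its family, Gadd45b held 23.1%, 33.3% and 23.8% of the summed FPKM in vehicle animals and 31.1%, 23.8% and 13.6% in melatonin animals (two-sided exact permutation p = 0.6). Gadd45a, the p53-responsive relative, held the largest share in every animal, from 54.8% to 73.7%.

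Ier3 encodes a survival factor, also called IEX-1, that is known to modulate ERK signalling. Vehicle and melatonin animals stood at 24.88, 13.01 and 24.63 FPKM and at 25.24, 18.07 and 23.81 FPKM, respectively. The groups overlapped, with vehicle animal 2 lowest and melatonin animal 5 next. The change was 0.14 ± 0.25 (log2, SE; limma adjusted p = 0.976), with a 95% interval from 0.737-fold to 1.65-fold, and it was -0.15 without vehicle animal 2.

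By mean FPKM over the 6 animals the order was Jund at 261, Fos at 146, Junb at 133, Ier2 at 66.2, Jun at 51.9, Dusp1 at 36.8, Atf3 at 24.2, Gadd45b at 23.3, Ier3 at 21.6 and Egr1 at 9.34. The ranges over animals did not overlap between Jund and Fos, between Junb and Ier2, or between Ier2 and Jun, where the lowest Ier2 value was 59.84 and the highest Jun value 59.79. All other neighbours in this order overlapped. The place of Jund depends on the summing of its 2 rows.

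For 8 of the 10 genes the spread between rats of the same group was above that of the median gene. The SD within groups on the log2(FPKM + 1) scale had a median of 0.33 over the 10, against 0.21 over all genes tested. Egr1 and Atf3 had the largest spread, at percentiles 98.1 and 97.7 of all genes tested, followed by Dusp1 at 90.9, Ier3 at 85.5 and Fos at 80.3. For Egr1 and Dusp1 it came mostly from the melatonin group. Their coefficients of variation were 16.8% and 3.88% after vehicle, against 97.25% and 44.3% after melatonin. In Egr1, melatonin animal 6 alone stood apart. For Atf3, Ier3 and Fos the coefficient was larger after vehicle. Ier2 and Jund had the smallest, at percentiles 17.7 and 23.7. Among the 8096 genes with a mean of at least 5 FPKM, Egr1 stood at percentile 99.0 and Fos at 87.3. This is a description of these libraries, with no test.

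**Figure D4:**
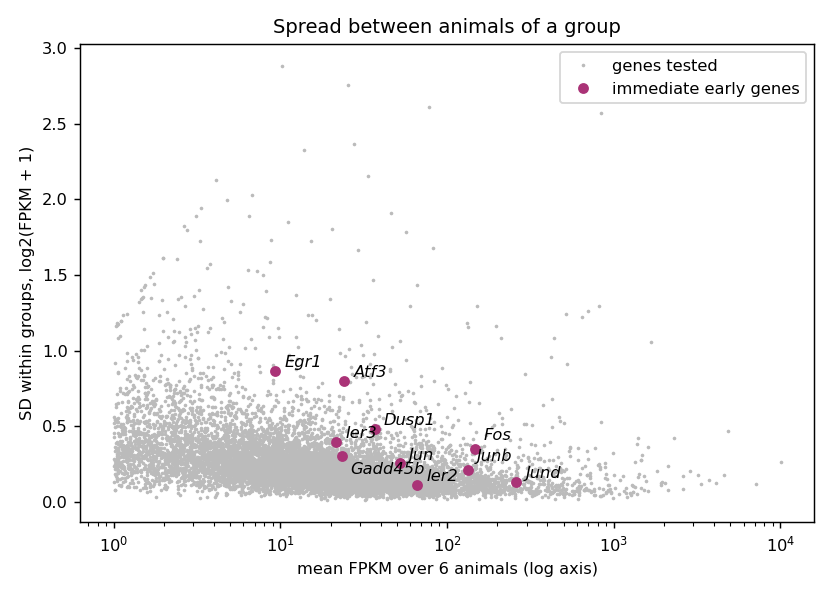
SD within groups on the log2(FPKM + 1) scale against mean FPKM (log axis) for the genes tested (grey) and the 10 immediate early genes (purple, named). Egr1 and Atf3 lie at the upper edge for their level, and Ier2 and Jund lie within the mass of genes.

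The animals that were high or low differed from gene to gene. Vehicle animal 2 held the lowest value for 6 of the 10 genes (Jund, Fos, Junb, Ier2, Atf3 and Ier3), against 14.5% of all genes tested, and the highest for Gadd45b. Melatonin animal 4 held the highest value for 5 of the 10 (Jund, Fos, Ier2, Jun and Ier3), against 21.4% of all genes tested. Melatonin animal 6 held the highest for 3 (Egr1, Atf3 and Dusp1), against 14.3%. The median difference of the 10 genes from the vehicle mean was 0.060, -0.14 and 0.15 in vehicle animals 1, 2 and 3 and 0.18, -0.068 and 0.18 in melatonin animals 4, 5 and 6 (log2). Above all 3 vehicle animals were 6 of the 10 genes in melatonin animal 4, 1 in animal 5 and 4 in animal 6, against 28.7%, 26.1% and 21.4% of all genes tested. Below all of them were 1, 2 and 1, against 17.6%, 26.7% and 41%.

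**Figure D5:**
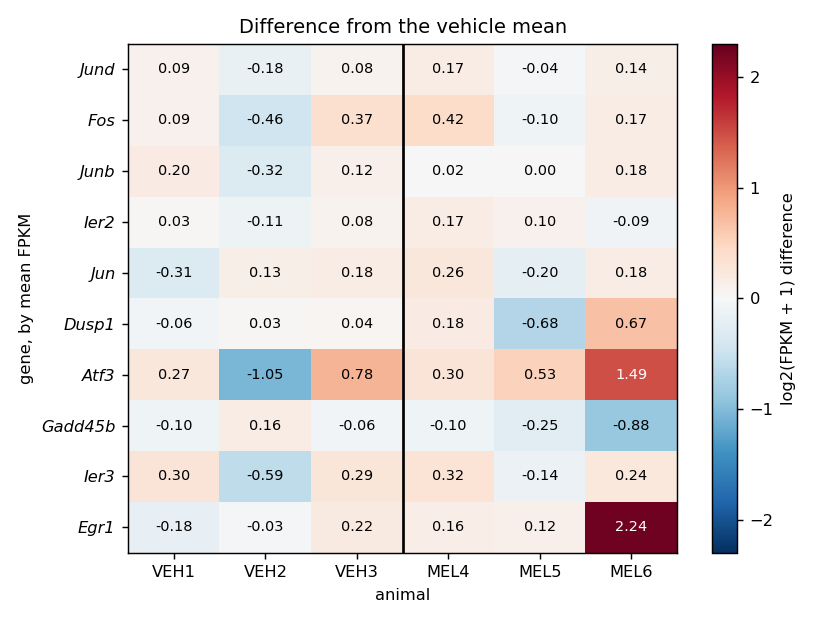
Difference of each animal from the vehicle mean for each gene, on the log2(FPKM + 1) scale, with vehicle animals left of the line and melatonin animals right of it. Vehicle animal 2 is low for most of the set, and melatonin animal 6 departs for Egr1 (2.24), Atf3 (1.49), Dusp1 (0.67) and Gadd45b (-0.88).

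Of the 45 pairs among the 10 genes, 33 had a positive correlation over the 6 animals. None passed Benjamini-Hochberg adjustment over the 45 pairs, with a smallest adjusted p of 0.219 for Pearson's r and 0.656 for Spearman's rho. Fos and Ier3 had Pearson's r = 0.94 (two-sided exact permutation p = 0.00972) and Spearman's rho = 0.83 (exact permutation p = 0.0583), and r = 0.79 without the 2 animals farthest from the Fos median, vehicle animal 2 and melatonin animal 4. Fos and Jund had r = 0.93 (exact permutation p = 0.00833) and rho = 0.83 (exact permutation p = 0.0583), and r = 0.68 without the same 2 animals. Jund and Ier3 had r = 0.97 (exact permutation p = 0.0167) and rho = 0.83 (exact permutation p = 0.0583), but r = 0.086 without vehicle animal 2 and melatonin animal 5, so that relation rests on those animals. These pairs were given because their r was the highest. The most negative r was -0.93, for Egr1 and Gadd45b (exact permutation p = 0.0569). Egr1 and Atf3 had the largest rho, 0.89 (exact permutation p = 0.0333), with r = 0.70.

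Among 7649 other named genes with a mean of at least 5 FPKM, those most like Fos over the 6 animals were Gipc1 (Pearson's r = 0.99), Rhbdd2 (0.98), Trib1 (0.97), Prkaa1 (0.97) and Capg (0.97), given as a description. Taking the top of 7649 genes over 6 animals favours high values of r, and no shared control is read from them. Trib1, a pseudokinase gene that also stands in the list of signal genes below, was listed at 86.46, 65.18 and 106.66 FPKM after vehicle and 106.53, 75.03 and 84.16 after melatonin, again lowest in vehicle animal 2. Among those most like Egr1 were Midn (r = 0.999), Lgmn (0.98), Plec (0.98) and Mab21l4 (0.98). Midn was listed at 98.94, 101.60 and 109.71 FPKM after vehicle and 108.03, 106.60 and 171.46 after melatonin. For Egr1 this likeness rests on melatonin animal 6, the 1 animal that departs from the others.

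Genes of the wider pathway were read from 6 lists. Of 92 genes, 86 had a row and 73 passed the filter. By limma, 0 of the 73 passed an adjusted p of 0.05 in either direction, and 1 had an unadjusted p under 0.05. The median change of the 73 was -0.021 (log2). The groups did not overlap for 3 that were higher (Ereg, Egfr and Mapk14) and 5 that were lower (among them Atf7, Mapk3, Map2k4 and Map2k3), together 8 of 73, beside the 8.38% given above. The genes in parentheses are named after their values were seen where the rule for named genes does not take them.

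Of the other AP-1 and related leucine zipper genes, 9 of 14 passed the filter, 2 with a change above 0 and 7 below, with a median of -0.12 (log2). Atf7, a relative of ATF2, was the gene with an unadjusted p under 0.05, listed at 16.88, 19.93 and 17.96 FPKM after vehicle and 12.49, 15.17 and 9.76 after melatonin (limma adjusted p = 0.972). Fosl2 was listed at 144.04, 157.19 and 151.81 and at 162.88, 116.10 and 152.46, so its level was close to that of Fos. Mafk, a small Maf protein gene, had means of 39.6 ± 4.02 and 38.4 ± 7.09 FPKM, and Atf2 25.2 ± 1.53 and 26.0 ± 7.57. Fosb was listed at 2.61, 2.75 and 5.18 and at 2.41, 4.85 and 16.75, highest in melatonin animal 6, as Egr1 was.

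Of the other immediate early transcription factors, 11 of 17 passed the filter, 8 above 0 and 3 below, with a median of 0.22 (log2). By animal, the median difference of the 11 from the vehicle mean was 0.019, 0.013 and 0.33 in melatonin animals 4, 5 and 6. It was -0.061, -0.092 and 0.073 in vehicle animals 1, 2 and 3. Klf4, a factor of differentiated colonocytes, was the most abundant at 532 ± 67.9 FPKM after vehicle and 516 ± 47.7 after melatonin. Klf6 was listed at 60.65, 66.00 and 65.37 and at 59.21, 69.80 and 111.40, with melatonin animal 6 apart. Klf10 had means of 36.9 ± 2.89 and 32.9 ± 3.66 FPKM and Ier5 34.8 ± 5.56 and 40.8 ± 6.95.

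Of the signal and RNA decay genes, 16 of 18 passed the filter, 9 above 0 and 7 below, with a median of 0.094 (log2). Zfp36 encodes tristetraprolin, which hastens the decay of AU-rich mRNAs such as those of cytokines. It was listed at 112.09, 93.58 and 103.44 FPKM after vehicle and 118.93, 99.71 and 216.91 after melatonin. Sgk1, a kinase of sodium transport, was listed at 471.27, 510.17 and 586.84 and at 588.40, 454.69 and 208.26. Melatonin animal 6 was thus highest for Zfp36 and lowest for Sgk1. Btg1, an antiproliferative gene, had means of 325 ± 35.2 and 299 ± 58.5 FPKM, and Mcl1, a BCL2 family survival gene, 145 ± 20.9 and 158 ± 12.4.

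Of the other MAP kinase phosphatases and ERK feedback genes, 10 of 14 passed the filter, 6 above 0 and 4 below, with a median of 0.12 (log2). Dusp5, which acts on ERK in the nucleus, had means of 26.7 ± 0.843 and 29.1 ± 4.77 FPKM, Dusp16 23.7 ± 1.82 and 22.2 ± 2.91, Dusp8 17.1 ± 6.20 and 20.1 ± 1.48, and the ERK antagonist Spry2 18.9 ± 3.66 and 20.7 ± 2.07. Of the Gadd45 relatives and p53 targets, 7 of 7 passed the filter, 2 above 0 and 5 below, with a median of -0.043 (log2). Gadd45a had means of 59.1 ± 6.25 and 58.6 ± 16.2 FPKM, and Cdkn1a, the cell cycle inhibitor p21, 89.3 ± 18.1 and 89.4 ± 11.4.

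Of the kinase cascade upstream, 20 of 22 passed the filter, 7 above 0 and 13 below, with a median of -0.082 (log2). The groups did not overlap for 2 of the 20 upwards and 4 downwards, against 4.04% and 4.33% of all genes tested. Mapk3, which encodes ERK1, was listed at 344.98, 358.93 and 366.03 FPKM after vehicle and 343.94, 313.26 and 330.19 after melatonin. Each melatonin animal lay below each vehicle animal, but animal 4 (343.94) lay close to vehicle animal 1 (344.98). The change was -0.12 (log2, limma adjusted p = 0.972). Map2k2, which encodes the ERK kinase MEK2, had means of 170 ± 9.36 and 158 ± 9.04 FPKM after vehicle and melatonin.

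Heat shock genes respond to many of the same stresses. Their 10 measured members summed to 3166 to 4196 FPKM after vehicle and 2682 to 3144 after melatonin. Hspa8, the constitutive chaperone, gave the largest part, at 2604.35, 1932.09 and 1891.68 FPKM and at 1571.20, 1337.18 and 1558.45. Without Hspa8 the sums were 1591, 1423 and 1274 FPKM after vehicle and 1111, 1775 and 1586 after melatonin, so the groups overlapped. In 9 tested members, 4 changes lay above 0 and 5 below, and 0 passed the test. The groups did not overlap for 3 of the 9, all lower after melatonin, against 4.33% of all genes tested. An unadjusted limma p under 0.05 was found for 3 of the 9, against 3.75% of all genes tested. Hspa1a was picked out after its values were seen, with a limma adjusted p of 0.254. It was listed at 25.15, 21.79 and 18.86 FPKM after vehicle and 9.11, 6.55 and 8.72 after melatonin. The part of the heat shock genes in the values of the immediate early genes was not tested.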

How the data were processed

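The authors deposited 1 table of FPKM values per RefSeq transcript and animal, with group means, the log2 ratio of those means and a score headed as a probability, per the file headers. Build rn6, RSEM, Bowtie2 and BWA 0.7.10-r789 appear in the submitters' processing notes, without roles; how shared reads were treated is not stated there. No strand marking is described, so antisense reads cannot be told apart. Of 13647 transcripts, 12883 were matched by accession to RefSeq symbols (GRCr8), and values of 1 gene were summed. The 764 unmatched transcripts were kept as features of their own. limma 3.58.1 in R 4.3.3 (mean trend, two-sided) was fitted to log2(FPKM + 1) for the 10137 features with a mean of at least 1 FPKM, with Benjamini-Hochberg adjustment over all of them. Such changes understate those of low genes. The fit was tested on simulated data. Depth was estimated from low values of transcripts under 700 bases: with 41 bases taken off the length, 80.8% to 85.3% of values lay within 0.1 of whole reads.

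The genes and lists were chosen with earlier results of these data known. Named were the 10 genes, the up to 4 most abundant genes of each related list and any past 0.05. The 5 genes most like Fos and Egr1 were also named. Heat shock and marker genes were named only as examples, by abundance, apart from Hspa1a, named after its values were seen. A few genes that this rule takes are not reported here. Alternatives were another pseudocount, 2 filters, 2 scalings (median of ratios, and an unweighted trimmed mean of M-values, TMM), separate transcripts, sample weights and leaving out each animal.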

Additional observations from a re-analysis of the deposited data

How the results depend on the processing

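Under 13 alternatives, 119 of 130 values of the 10 genes kept their direction and side of the threshold, 11 turned sign, and none passed an adjusted p of 0.05. With sample quality weights the log2 change was -0.043 for Fos, -0.11 for Jun, -0.061 for Ier3 and -0.36 for Dusp1. Leaving out 1 animal at a time gave -0.067 to 0.35 for Fos, -0.079 to 0.22 for Jun, -0.096 to 0.16 for Junb, -0.15 to 0.29 for Ier3 and -0.25 to 0.43 for Dusp1; the cause was not tested. Over all genes, limma called 0 to 4 higher and 0 to 0 lower when 1 animal was left out (4 without melatonin animal 4 and 3 without vehicle animal 1), and 1 lower with no filter on low values. Immediate early genes whose groups did not overlap numbered 0 to 2 higher and 1 to 1 lower when 1 animal was left out (2 higher without vehicle animal 3 or melatonin animal 5, 1 without melatonin animal 6), where fewer animals make this easier. Chosen after seeing the data, leaving out Hspa8 turned the heat shock sum from -593 to 61.2 FPKM (melatonin minus vehicle mean), and 1 Jund row in place of 2 moved the Jund share of the Jun family from 58.2% to 41.1% after vehicle. No paired analysis was possible because the groups share no replicate number. Depth limits Egr1 most, with as few as 24 estimated reads.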
